A study of Mus musculus with 8 samples.

Results

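Mgst2, a microsomal glutathione transferase that can make leukotriene C4, and 6 genes around it were followed in 8 arrays of mouse plasmacytoid dendritic cells (pDC). The 7 genes are Mgst1, Mgst2 and Mgst3, Ltc4s, Alox5, Alox5ap and Lta4h, chosen by name, and they have 9 probes among the 55681 probes and 36095 genes of the array. Each gene was read from the probe with the highest mean log2 signal over all 8 arrays. Mgst2 was chosen because its difference between the groups was already known, so that difference is described here with no test. Of the 7 genes, 6 passed the filter on dim probes and entered the comparison of 19818 genes, and Mgst1 did not pass it.

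The arrays hold 4 samples of Sca-1+ pDC and 4 samples of Sca-1- pDC. All came from female BALB/c mice, with no age, genetic change or stimulus given in the labels. Bone marrow precursors were cultured with mouse Flt3 ligand, the growth factor that drives dendritic cell development, and both groups were then purified by magnetic and flow cytometric sorting. Sca-1 is a surface protein encoded by Ly6a that marks blood stem and progenitor cells. The cells are culture-derived pDC and not pDC taken from an organ, and nothing in the labels says that replicates came from separate cultures or animals. Each p-value therefore reflects the spread among these 8 samples alone, and that spread may be technical.

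Leukotrienes are lipid mediators made from arachidonic acid. Cytosolic phospholipase A2 frees the acid from membranes, the protein encoded by Alox5ap (FLAP) passes it to 5-lipoxygenase (Alox5), and 5-lipoxygenase turns it into the unstable leukotriene A4. Lta4h converts leukotriene A4 into leukotriene B4, an attractant of neutrophils, whereas Ltc4s and Mgst2 join it to glutathione to give leukotriene C4, the parent of the cysteinyl leukotrienes. Mgst1, Mgst2, Mgst3, Ltc4s and the FLAP protein belong to a single family of small membrane proteins, and Ltc4s is best known from mast cells, basophils and eosinophils.

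The difference in Mgst2 rests on a single probe, shown here because it carries the value the other results are set beside. It covers chr3:51486449-51486508 (mm9, plus strand) and starts at base 440 of its transcript. The capitals mark its last 3 bases, a stop codon in the first reading frame, which holds no other stop.
Mgst2 probe: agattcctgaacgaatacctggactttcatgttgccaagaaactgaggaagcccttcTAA
A relative with a measured level, Mgst3, was read by 2 probes on the minus strand, shown because they gave different sizes of difference. The main probe lies at chr1:169303928-169303987 (mm9) and starts at base 312 of the transcript. The other lies at chr1:169305625-169307435, where 60 bases of probe span 1811 bases of genome, and it starts at base 201.
Mgst3 main probe: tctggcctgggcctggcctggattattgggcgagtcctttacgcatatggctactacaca
Mgst3 other probe: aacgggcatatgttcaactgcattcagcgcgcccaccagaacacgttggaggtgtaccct
Neither Mgst3 probe holds a stop codon in any frame, and both have a GC content of 55.0%, against 43.3% for the Mgst2 probe.

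A level below is the log2 processed signal minus the 75th percentile of its array, and a difference is Sca-1+ minus Sca-1- on that scale. A gene was called at an adjusted p below 0.05. The 75th percentile of signal lay between 166 and 396 on the Sca-1+ arrays and between 152 and 434 on the Sca-1- arrays, and 45.9% to 54.9% of spots were well above background. Samples with the same replicate number shared a slide, and the Sca-1+ sample always took array position 2, its Sca-1- partner position 1, so that position and group cannot be told apart. Slide 4 was extracted with another version of the image extraction protocol, was scanned on another day and had the brightest arrays in both groups. Ly6a had signals of 27700, 43500, 32700 and 56800 in Sca-1+ replicates 1 to 4, against 2050, 1310, 1330 and 2000 in Sca-1- replicates 1 to 4 (difference 4.65 ± 0.24 SE). The groups are defined by Sca-1, the product of Ly6a, so this difference is a check of the sort and is given with no test. All 15 pDC markers were tested, and unpaired limma called 0 of them, against 1.71% of all genes. Blocked by slide it called 4, all higher in Sca-1+ pDC, against 2.10% of all genes. These were Irf7 (difference 0.94), Lag3 (0.73), Tlr7 (0.58) and Ccr9 (0.55). Siglech and Bst2 were called in neither fit.

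Mgst2 was well above background on all 8 arrays and was about 2.31-fold higher in Sca-1+ pDC. It gave processed signals of 1240, 1620, 1560 and 2030 in Sca-1+ replicates 1 to 4, against 685, 450, 725 and 1270 in Sca-1- replicates 1 to 4. Relative to the 75th percentile, its level was 2.90, 3.08, 2.96 and 2.36 in Sca-1+ replicates, against 1.56, 1.56, 1.80 and 1.55 in Sca-1- replicates. The lowest Sca-1+ sample, on slide 4, lay above the highest Sca-1- sample, on slide 3, so the groups did not overlap, as was the case, with the higher levels in Sca-1+ pDC, for 1.91% of all genes. The mean level was 2.82 ± 0.32 in Sca-1+ pDC and 1.62 ± 0.12 in Sca-1- pDC (SD, n = 4 each), a difference of 1.21. In bulk RNA of this kind, a larger share of cells with the transcript and more transcript per cell cannot be told apart.

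Within slides the Mgst2 difference was 1.34, 1.51, 1.17 and 0.81 on slides 1 to 4, or 2.52-fold, 2.85-fold, 2.25-fold and 1.75-fold. Every slide therefore had the higher level in its Sca-1+ sample, and slide 4 had the smallest gap, since its Sca-1+ level was the lowest of that group. Among the 19818 tested genes, whose median difference was 0.03, the Mgst2 difference was the 41st highest, above 99.8% of genes. By the call rule 1.71% of tested genes differed in either direction and 0.126% were higher in Sca-1+ pDC. Because Mgst2 was picked for this contrast, its rank describes the choice. The plot of levels by array shows the 7 genes side by side.

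**Figure D1:**
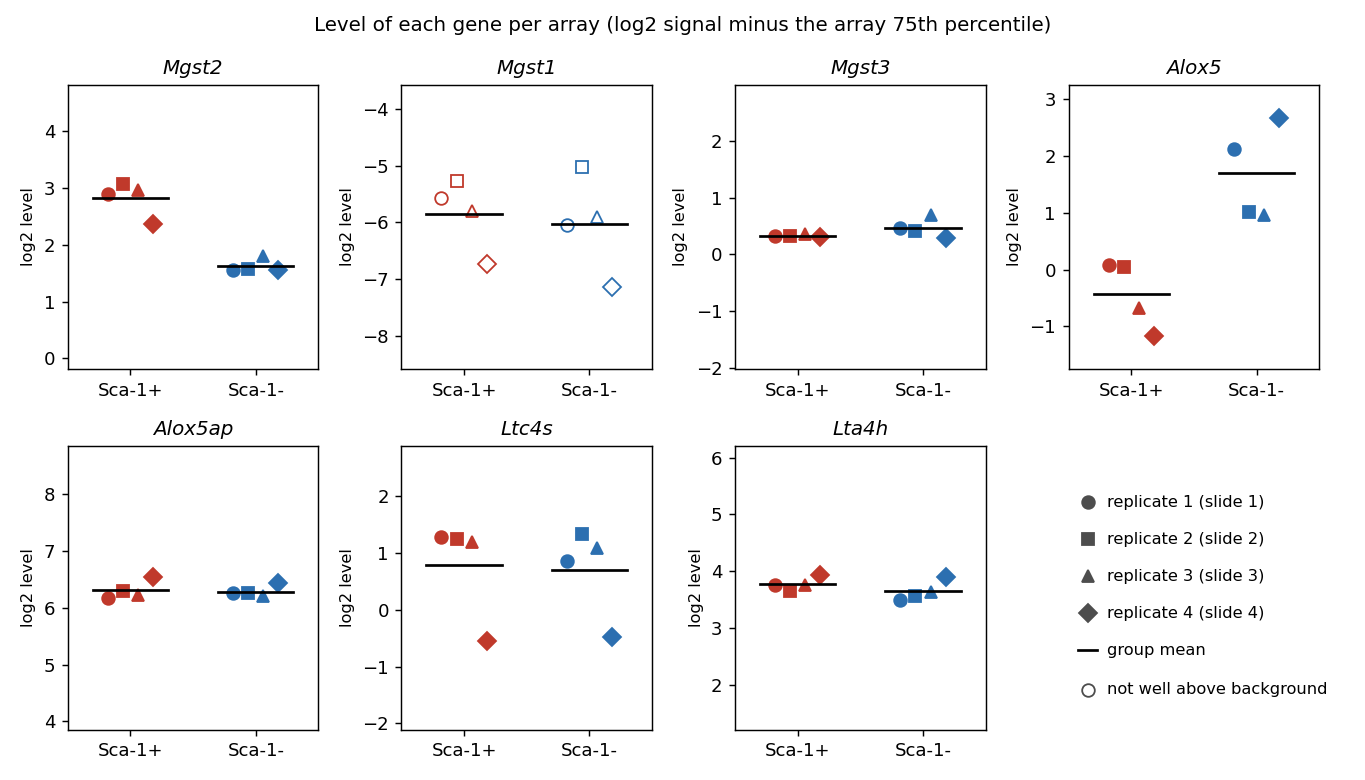
Level of each of the 7 genes on each array, as log2 signal minus the array 75th percentile, with Sca-1+ samples on the left, Sca-1- samples on the right, 1 symbol per slide and a line at the group mean. Mgst2 and Alox5 are the genes with no overlap between groups, in opposite directions, and the open symbols of Mgst1 are not well above background.

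Mgst1, a family member that acts on many reactive and oxidised compounds, was not well above background in either group. Its probes lie at chr6:138104944-138105003 and chr6:138104846-138104905 (mm9, plus strand), and both were well above background on 0 of 8 arrays. Their signals ran between 2.55 and 6.88. On the same arrays, the dimmest probe that was well above background had a signal of 7.38 to 15.1. No fold is given for Mgst1, since neither group was well above background.

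Mgst3, which also has glutathione transferase and peroxidase activity, showed no called difference. Its main probe had levels of 0.33, 0.32, 0.35 and 0.30 in Sca-1+ replicates 1 to 4, against 0.46, 0.40, 0.68 and 0.28 in Sca-1- replicates 1 to 4. The Sca-1+ samples lay close together inside the wider range of the Sca-1- samples, so the groups overlapped. The means were 0.33 ± 0.022 in Sca-1+ pDC and 0.46 ± 0.17 in Sca-1- pDC (SD, n = 4 each). The difference was -0.13 ± 0.13 SE, with a 95% interval of -0.42 to 0.16 and a limma adjusted p of 1.00. The other Mgst3 probe, tested among all probes, differed by -0.29 and was not called either (limma adjusted p = 0.729). Both Mgst3 probes thus had a lower mean in Sca-1+ pDC, where Mgst2 had a higher one, but the difference between the 2 genes was not tested.

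Ltc4s, the dedicated leukotriene C4 synthase, did not separate the groups and varied with the slide. Its probe (chr11:50049974-50050031, mm9, minus strand) gave levels of 1.28, 1.25, 1.19 and -0.55 in Sca-1+ replicates 1 to 4, against 0.86, 1.33, 1.09 and -0.48 in Sca-1- replicates 1 to 4. Slide 4 was the low one in both groups, and the remaining samples overlapped. The mean difference was 0.09 ± 0.52 SE (95% interval -1.10 to 1.29, limma adjusted p = 1.00), and the sign differed among slides at 0.42, -0.08, 0.10 and -0.07. Blocked by slide, the SE was 0.11 and the limma adjusted p was 0.647.

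Markers of basophils and mast cells were low on slide 4, as Ltc4s was. The summed scaled signal of the 10 markers, in units of each array's 75th percentile, was 24, 7.48, 10.7 and 0.779 in Sca-1+ replicates 1 to 4, against 19.1, 6.27, 14 and 0.705 in Sca-1- replicates 1 to 4. Slide 4 was lowest in both groups here too, while among the other Sca-1- samples the order was the reverse of that of Ltc4s. Among the Sca-1+ samples slide 1 was the highest for both. The Ltc4s levels of Sca-1+ replicates 1 to 3 lay close together, at 1.19 to 1.28. Of these 10 markers 7 were tested, and Cd200r3, Cma1 and Ms4a2 were not well above background on any array. In both fits limma called 0 of the 7, against 1.71% of all genes unpaired and 6.22% blocked by slide. The 6 eosinophil markers summed to between 0.521 and 3.44 in Sca-1+ samples and between 0.618 and 3.88 in Sca-1- samples, with Epx and Siglecf at background throughout. The part of other cell types in the Ltc4s level was not tested.

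Alox5, the 5-lipoxygenase itself, had the widest gap of the 6 tested genes, with the lower level in Sca-1+ pDC, but it did not pass the test. Its probe (chr6:116360326-116360385, mm9, minus strand) had signals of 174, 197, 126 and 176 in Sca-1+ replicates 1 to 4, against 1010, 307, 408 and 2760 in Sca-1- replicates 1 to 4. The levels were 0.07, 0.04, -0.67 and -1.17 in Sca-1+ replicates, against 2.12, 1.01, 0.97 and 2.67 in Sca-1- replicates. The groups did not overlap, which makes Alox5 1 of the 5 tested genes other than Mgst2 with this property, against 6.95% of all genes. Within Sca-1- pDC the samples on slides 1 and 4 were the high ones.

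The mean Alox5 level was -0.43 ± 0.60 in Sca-1+ pDC and 1.69 ± 0.84 in Sca-1- pDC (SD, n = 4 each). The difference was -2.12 ± 0.45 SE, with a 95% interval of -3.15 to -1.10, which is 4.36-fold higher in Sca-1- pDC. The limma adjusted p was 0.0672 (unadjusted p = 0.00127), and it was 0.0551 when slides were blocked, so Alox5 stayed above the threshold in both fits. It was the 76th lowest difference of 19818. Groups that did not overlap and were lower in Sca-1+ pDC were seen for 5.03% of genes.

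Within slides 1 to 4 the Alox5 difference was -2.05, -0.98, -1.64 and -3.83, or 4.15-fold, 1.97-fold, 3.11-fold and 14.3-fold higher in Sca-1- pDC. The sign was the same on every slide, and slide 4 gave the largest of these values, the reverse of its place for Mgst2. Without slide 4 the difference was -1.56, with a limma adjusted p of 0.0608. Without slide 1 it was -2.15, with a limma adjusted p of 0.372.

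**Figure D2:**
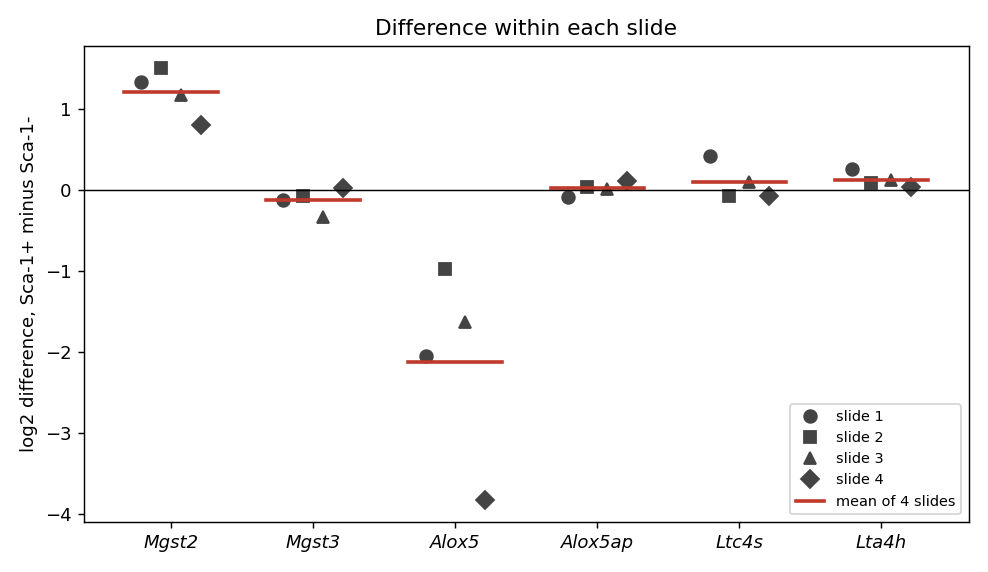
Difference in log2 level, Sca-1+ minus Sca-1-, within each of the 4 slides for the 6 tested genes, with the mean of the slides as a line. Mgst2 lies above 0 and Alox5 below 0 on every slide, while Alox5 spreads from -0.98 to -3.83.

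Alox5 is made by several myeloid cells, so their markers are given beside it. The 9 monocyte and macrophage markers summed to 71.3, 69.2, 68 and 83.2 in Sca-1+ replicates 1 to 4, against 82.8, 77.7, 67.7 and 90.6 in Sca-1- replicates 1 to 4, so the groups overlapped. Of these, 5 were tested and unpaired limma called 0, against 1.71% of all genes, and Mertk was at background. Ccr2 was the brightest of the 9 markers, with a mean level of 5.66 in Sca-1+ pDC and 5.43 in Sca-1- pDC. The 5 tested monocyte markers differed in both directions, by -1.19 for Csf1r, -0.52 for Cd14, -0.08 for Lyz2, 0.23 for Ccr2 and 0.47 for Cd68. Blocked by slide, limma called 1 of the 5, against 6.22% of all genes. This was Csf1r, the receptor for macrophage colony-stimulating factor (limma adjusted p = 0.171 unpaired and 0.00637 blocked). The 10 neutrophil and granulocyte precursor markers summed to 12.5, 11.4, 12.7 and 2.96 in Sca-1+ replicates, against 17.2, 7.67, 12.9 and 4.31 in Sca-1- replicates, with Cxcr2 at background. Of these, 7 were tested with a median difference of -0.19. Unpaired limma called 0 of them, against 1.71% of all genes. Blocked by slide it called 1, against 6.22% of all genes. This was Prtn3, lower in Sca-1+ pDC (-0.74, limma adjusted p = 0.0452). Over the Sca-1- samples the sums of monocyte markers had the same order as the Alox5 levels, and the sums of granulocyte markers did not. Slide 4 had the highest monocyte sum and the lowest granulocyte sum in both groups. Its Alox5 level was the highest of the Sca-1- samples and the lowest of the Sca-1+ samples. The part of these cells in the Alox5 difference was not tested.

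Conventional dendritic cell and B cell markers complete the marker lists. The conventional dendritic cell markers summed to between 126 and 166 in Sca-1+ samples and between 131 and 167 in Sca-1- samples, with Xcr1 at background. The brightest, which weigh most in this sum, were Itgax, Flt3 and Sirpa. Their mean levels were 6.14, 5.05 and 4.18 in Sca-1+ pDC, against 6.35, 5.25 and 3.63 in Sca-1- pDC. Zbtb46 was dim, at -3.22 and -2.01. Of 7 tested markers limma called 0 unpaired, against 1.71% of all genes. Blocked by slide it called 3, against 6.22% of all genes. Itgae (difference 0.97) and Sirpa (0.54) were higher in Sca-1+ pDC, and Zbtb46 (-1.20) was lower. The B cell markers summed to between 162 and 186 in Sca-1+ samples and between 118 and 162 in Sca-1- samples. Blnk weighs most in this sum, with a mean level of 7.39 in Sca-1+ pDC and 7.04 in Sca-1- pDC. Of the 9 B cell markers 4 were tested, and Igll1, Ms4a1 and Pax5 were at background on every array. In both fits limma called 0 of the 4, against 1.71% of all genes unpaired and 6.22% blocked by slide.

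Alox5ap, which hands arachidonic acid to 5-lipoxygenase, was bright and nearly equal in both groups. Its probe (chr5:150099347-150099406, mm9, plus strand) had levels of 6.17, 6.30, 6.22 and 6.54 in Sca-1+ replicates 1 to 4, against 6.25, 6.26, 6.20 and 6.43 in Sca-1- replicates 1 to 4. The groups overlapped almost fully, and slide 4 was slightly higher in both. The means were 6.31 ± 0.16 in Sca-1+ pDC and 6.29 ± 0.099 in Sca-1- pDC (SD, n = 4 each). The difference was 0.02 ± 0.13 SE with a 95% interval of -0.28 to 0.32 (limma adjusted p = 1.00), so a difference as large as that of Alox5 lies outside this interval.

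Lta4h, which opens the branch to leukotriene B4, also showed no called difference. Its probe (chr10:92947503-92947562, mm9, plus strand) had levels of 3.75, 3.65, 3.76 and 3.93 in Sca-1+ replicates 1 to 4, against 3.49, 3.56, 3.64 and 3.89 in Sca-1- replicates 1 to 4. The Sca-1+ sample was the higher one on every slide, although the groups overlapped. The means were 3.77 ± 0.11 in Sca-1+ pDC and 3.65 ± 0.17 in Sca-1- pDC (SD, n = 4 each). The difference was 0.13 ± 0.14 SE (95% interval -0.18 to 0.44, limma adjusted p = 1.00).

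Besides Mgst2, limma called 0 of the 5 tested genes, blocked by slide or not. At an unadjusted p below 0.05 the count was 1 of 5, for Alox5. In the background, unpaired limma found 339 of 19818 genes (1.71%), of which 25 (0.126%) were up in Sca-1+ pDC and 314 (1.58%) were down, and 1776 genes (8.96%) had an unadjusted p below 0.05. When slides were blocked it found 1233 (6.22%), of which 416 (2.10%) were up and 817 (4.12%) were down. Without slide 1 the unpaired fit called 1 gene of the array, and without slide 4 it called 879. Of the genes around 5-lipoxygenase, Alox5ap, Lta4h, Ltc4s and Mgst3 had differences between -0.13 and 0.13, while Mgst2 and Alox5 lay far out on opposite sides.

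**Figure D3:**
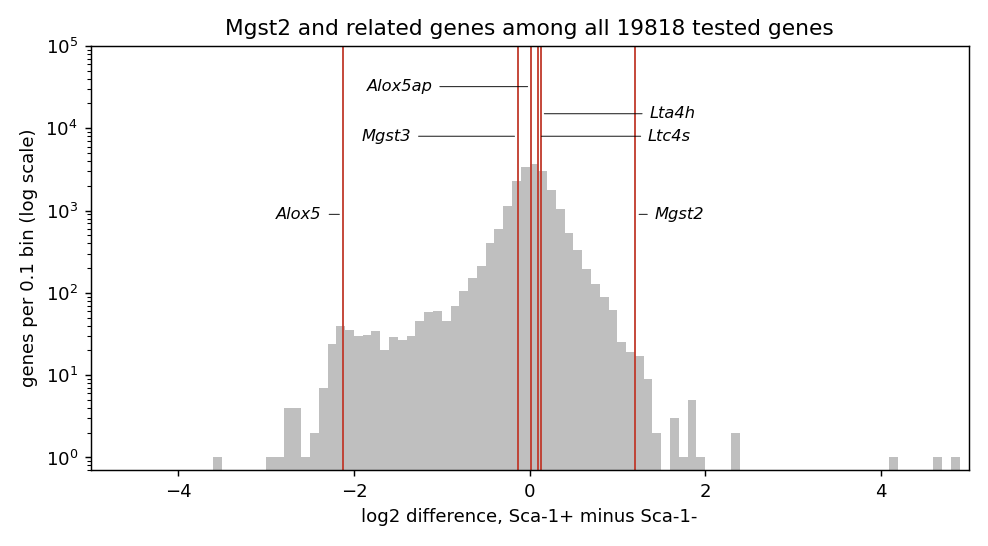
Differences of all 19818 tested genes (Sca-1+ minus Sca-1-, in bins of 0.1 on the log2 scale, with the number of genes on a log axis) with the 6 tested genes marked by lines. Mgst2 at 1.21 and Alox5 at -2.12 lie in the upper and lower tails, and the remaining 4 lie near the centre.

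Beyond the 7 genes, 73 genes of arachidonate release, leukotriene handling, prostanoid synthesis and glutathione use were read, of which 43 were tested. The unpaired limma fit called 0 of the 43, against 1.71% of all genes, and 5 had an unadjusted p below 0.05, against 8.96% of all genes. When slides were blocked it called 4 (against 6.22% of all genes), namely 3 that were higher in Sca-1+ pDC (against 2.10%) and 1 that was lower (against 4.12%). Without slide 4 the unpaired fit called 3, namely Pla2g4d, Gsto2 and Gstt3, against 4.44% of all genes. The 4 genes of the blocked fit are described first.

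Both prostaglandin D2 synthases were among them. Ptgds, the lipocalin-type enzyme, had signals of 958, 1130, 1990 and 12400 in Sca-1+ replicates 1 to 4, against 388, 332, 919 and 7960 in Sca-1- replicates 1 to 4. The brightness varied far more between slides than between groups, but on each slide the Sca-1+ sample was the brighter one. Its differences within slides were 1.79, 1.43, 1.18 and 0.77, with a mean of 1.29 (limma adjusted p = 0.835 unpaired and 0.0160 blocked by slide). Hpgds, the haematopoietic enzyme, had signals of 308, 396, 594 and 1370 in Sca-1+ replicates, against 146, 127, 338 and 1020 in Sca-1- replicates. Its differences were 1.56, 1.31, 0.87 and 0.56, with a mean of 1.07 (limma adjusted p = 0.457 unpaired and 0.0306 blocked by slide). Without Sca-1+ replicate 4 the Ptgds difference was 0.75, and without Sca-1- replicate 4 it was 2.01. For both synthases the groups overlapped across slides, and the gap was smallest on slide 4, as it was for Mgst2.

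The cytosolic phospholipase A2 gene Pla2g4d was dim, with signals of 32.3, 37.4, 43.3 and 98.9 in Sca-1+ replicates, against 21.5, 12.2, 22 and 86.5 in Sca-1- replicates. The Sca-1+ sample was brighter on every slide, the levels overlapped across slides, and replicate 2 of the Sca-1- group was not well above background. The mean difference was 0.93 (limma adjusted p = 0.236 unpaired and 0.0373 blocked by slide). Ptgr1, an oxidoreductase that inactivates leukotriene B4 and prostaglandins, had signals of 251, 253, 208 and 544 in Sca-1+ replicates, against 581, 302, 313 and 851 in Sca-1- replicates. It was lower in the Sca-1+ sample of every slide, by a log2 difference of -0.73, -0.59, -0.53 and -0.51, with a mean of -0.59 (limma adjusted p = 0.293 unpaired and 0.0157 blocked by slide).

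No other gene of the lists was called in either limma fit. Of 8 tested phospholipases A2 the median difference was 0.19, and Pla2g4a, the main arachidonate-releasing enzyme of blood cells, differed by -0.42 (limma adjusted p = 0.390). Its level was lower in the Sca-1+ sample of every slide. The groups did not overlap, with a highest Sca-1+ level of -1.68 and a lowest Sca-1- level of -1.65. For 5.03% of all genes the groups likewise did not overlap and were lower in Sca-1+ pDC. Of 6 tested genes of leukotriene export, processing and breakdown the median was -0.10. Dpep2, a dipeptidase that processes leukotriene D4, had differences within slides of -3.15, 1.66, 0.01 and -2.29, with no common sign, and Sca-1+ replicate 1 was not well above background. Its mean difference was -0.94 (limma adjusted p = 0.993). It was -0.21 once slide 1 was left out.

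Of the 6 leukotriene receptor genes 3 were tested, with a median of -0.38. Cysltr1, a receptor for cysteinyl leukotrienes, had signals of 744, 960, 689 and 1480 in Sca-1+ replicates, against 1610, 836, 875 and 2240 in Sca-1- replicates. It was lower relative to its array in the Sca-1+ sample of each slide, but the groups overlapped, and the difference of -0.38 was not called (limma adjusted p = 0.691). Ltb4r2, the low-affinity leukotriene B4 receptor, was dim and differed by 0.78 (limma adjusted p = 0.755). Within slides it differed by 2.49, 0.20, 0.53 and -0.11, with Sca-1- replicate 1 not well above background, and without replicate 1 in both groups the difference was 0.21. Of the 6 other lipoxygenases Alox12b alone was tested, with a difference of 0.22 (limma adjusted p = 1.00).

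The 7 tested prostanoid genes had a median of 0.11, and their next gene after Hpgds by p, Ptges3, differed by -0.19 (limma adjusted p = 0.805). For glutathione synthesis and peroxidases, 7 genes were tested with a median of -0.07. Gss, the glutathione synthetase, differed by -0.27 (limma adjusted p = 0.647) and Gpx1, the main cytosolic glutathione peroxidase, by -0.14 (limma adjusted p = 0.988). The median of all tested genes was 0.03, so that these medians lay on both sides of it.

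The soluble glutathione transferases share the glutathione chemistry of Mgst2 but not its membrane fold, and 11 of 20 were tested, with a median of 0.19. Gsto2 had signals of 45.8, 44.1, 47.8 and 64.6 in Sca-1+ replicates 1 to 4, against 11.4, 19.5, 17.8 and 49.6 in Sca-1- replicates 1 to 4. Its levels did not overlap between groups, but replicates 1 and 3 of the Sca-1- group were not well above background, and the difference of 1.33 was not called (limma adjusted p = 0.102 unpaired and 0.0758 blocked by slide). After normexp background correction the Gsto2 difference was 0.44 (limma adjusted p = 0.765). Gstm4 differed by -0.46 (limma adjusted p = 0.834), with differences within slides of -1.27, -0.32, -0.27 and 0.01. Its Sca-1+ replicate 1, on slide 1, was not well above background, and without that sample the difference was -0.20. No soluble transferase therefore passed either fit.

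**Figure D4:**
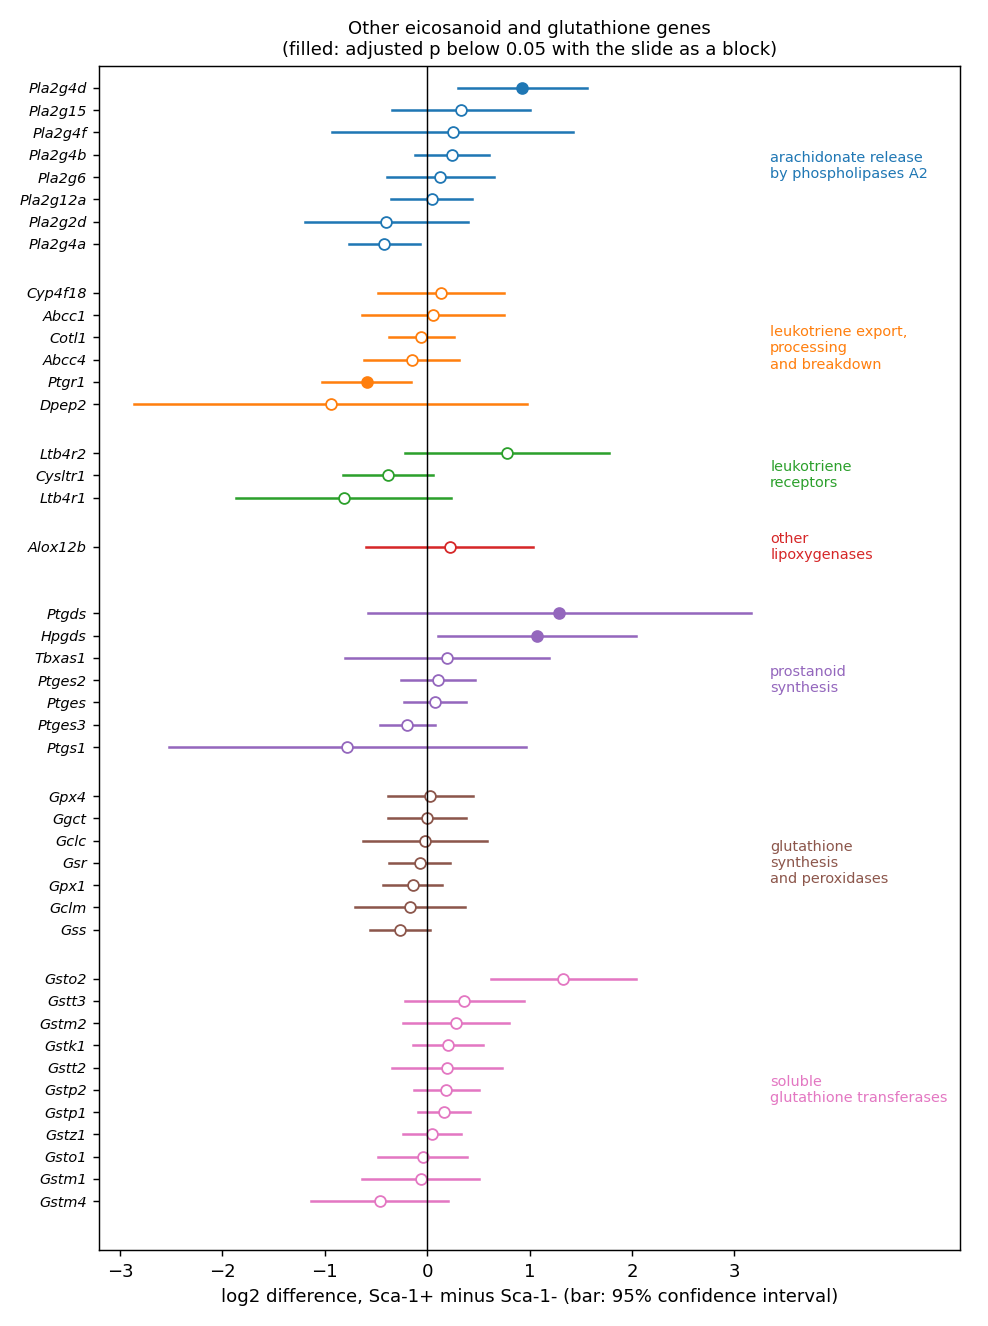
Difference in log2 level, Sca-1+ minus Sca-1-, with its 95% confidence interval from the unpaired fit, for the 43 tested genes of 7 lists, with filled points for the genes called when slides were blocked. Filled points are Pla2g4d, Ptgr1, Ptgds and Hpgds, and Gsto2 has the largest difference at 1.33 without being called.

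Genes whose pattern over the 8 arrays was most like that of Mgst2 were ranked by the root mean square difference of mean-centred levels, among 17675 genes well above background on every array. The 5 closest were B3galnt1 at 0.222, Klk1b4 at 0.251, Ciita at 0.258, H2-Ab1 at 0.260 and Unc79 at 0.267. Their own differences were 0.91, 0.94, 0.90, 0.83 and 1.17, close to that of Mgst2 because the ranking uses the same levels. Beside Mgst2 on its chromosome, in the order of the RefSeq annotation, Rab33b, Setd7, Maml3 and Foxo1 differed by 0.18, 0.00, -0.40 and 0.08. None of these 4 neighbours was called in either limma fit.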

How the data were processed

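RNA of the sorted cells was amplified, labelled with Cy3 from 100 ng per sample and hybridised to 1-colour Agilent arrays, per the labels' protocols. A separate amplification of polyA RNA appears in the sample descriptions, and its relation to the labelling step was not stated. The spot intensity was read and background-corrected by the authors (Agilent Feature Extraction, version 10.7.3.1), per the file headers, and probe positions refer to mm9. The authors also deposited values of the whole series on the log2 scale, with a median of 3.90 in each column, correlations of 0.998 to 1.00 with the log2 signal of the matching arrays and 22 missing values. These served as an alternative, and how they were normalized was not stated.

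Of 62976 spots per array, 59305 were non-control. Control spots and 105 to 162 outlier spots per array were left out, 0 spots were saturated, and spots of a probe were averaged. From each array its 75th percentile of log2 intensity was subtracted. Probes were named through the accession for 26582, through the symbol for 3094, and 26005 kept the deposited name. Tested genes were those whose brightest probe stood well above background on 4 or more of 8 arrays. The number of arrays limits the precision.

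Groups and replicate numbers come from the sample titles. The comparison used lmFit and eBayes of limma 3.58.1 (R 4.3.3, version 1.17.8 of data.table), unpaired and two-sided, with Benjamini-Hochberg adjustment over all tested genes. On simulated data with 200 changed genes among 19818, the fit found 0% of them at a log2 difference of 0.5, 30.5% at 1 and 80.5% at 2. Same-numbered samples shared a slide, per the file headers, and their deviations from the group means correlated at 0.441, 0.430, 0.640 and 0.892, against -0.725 to 0.536 for different numbers. A fit blocked by slide is therefore given where it changes a call or a count.

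The genes, the lists, the markers and the tests were chosen with earlier results of these data known. Named genes are the 7 genes, Ly6a, the 5 genes most like Mgst2 (clone names passed over), and in each list the 2 genes with the smallest p and any gene called in either fit. Siglech, Bst2, Prtn3, the tested monocyte markers, Gstt3, the markers at background and the neighbours of Mgst2 were named after their values were seen. So were Itgax, Flt3, Blnk and the pDC and conventional dendritic cell markers called in the blocked fit. Some markers are not reported here by name. Alternatives were normexp background correction, quantile normalization, scaling on the median of detected probes, other filters on dim probes, the mean over probes, the slide as a block, the deposited table and leaving out samples. Plots used matplotlib 3.10.9 under Python 3.11.15, with pandas 2.3.3 and numpy 2.4.6.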

Additional observations from a re-analysis of the deposited data

Results flagged for a closer look

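Of 40 sets of 4 levels examined for the named genes, 3 held a sample far from the rest of its group, and chance gives about 1 in 20 such sets. Ltc4s had a level of -0.55 in Sca-1+ replicate 4, where the other Sca-1+ samples lay between 1.19 and 1.28. Mgst2 had a level of 1.80 in Sca-1- replicate 3, where the other Sca-1- samples lay at 1.55 to 1.56. Gss had a level of 0.355 in Sca-1- replicate 3, where the other Sca-1- samples lay between 0.618 and 0.631.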

How the results depend on the processing

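Over 20 alternatives, 12 of which left out samples, the Mgst2 difference kept its direction (1.06 to 1.36). So did Alox5 (-2.51 to -1.56, adjusted p 0.0551 to 0.372), Mgst3 (-0.21 to -0.05) and Lta4h (0.08 to 0.21), none of them past the threshold in any alternative. Leaving out samples moved Ltc4s between -0.30 and 0.54, with 5 changes of sign (-0.016 without replicate 1 in both groups), and Alox5ap between -0.057 and 0.068, with 3 changes of sign (-0.0098 without replicate 4 in both groups). The count of called genes other than Mgst2 stayed at 0 throughout, of 5 tested genes or, without a filter on dim probes, of 6. Without a filter on dim probes 182 genes of the whole array were called, against 339, and with the replicate block 1233, which held 338 of the 339. Leaving out samples gave 1 to 879, namely 228, 225, 176 and 312 without Sca-1+ replicates 1, 2, 3 and 4, 165, 163, 205 and 463 without Sca-1- replicates 1, 2, 3 and 4, and 1, 2, 29 and 879 without replicate 1, 2, 3 and 4 in both groups. The cause of these changes was not tested. Of the 43 genes of the surrounding lists the replicate block called 4, and leaving out samples gave 0 to 3. Without Sca-1- replicate 4 the call was Pla2g4d (1.21, adjusted p = 0.00860). Dropping replicate 4 from both groups gave calls for Pla2g4d (1.13, adjusted p = 0.00655), Gstt3 (0.67, adjusted p = 0.0212) and Gsto2 (1.60, adjusted p = 0.0430). Alox12b turned to -0.036 without Sca-1- replicate 4 and was 0.49 without Sca-1- replicate 2. Among the 5 tested genes other than Mgst2 the block changed no call. Signal over background limits Mgst1, which was well above background on no array. It also limits Gsto2, Gstm4, Pla2g4d, Dpep2 and Ltb4r2, which were not well above background on 1 or more arrays.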
